A study of Rattus norvegicus with 9 samples.

Results

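The genes of GABA and glycine transmission were followed in rat brain after middle cerebral artery occlusion (MCAO), a model of ischemic stroke, with and without salidroside. The set holds 31 genes and takes every non-control probe on the arrays whose transcript belongs to one of them. That gave 39 of the 30367 non-control probes, with 23 genes on 1 probe and 8 genes on 2 probes. A probe was measured if it stood well above background on all 3 arrays of at least 1 group, and 33 probes of 25 member genes passed. The other 6 genes were Gabra3, Gabra6, Gabrg3, Gabre, Gabrr1 and Glra3, and they are described by their signals only.

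Brain RNA of male Sprague Dawley rats was labelled with Cy3 and hybridised to 9 arrays, with 3 arrays in each of 3 groups. The sham group served as the control. The vehicle group had MCAO and daily intraperitoneal saline for 6 days. The salidroside group had MCAO and daily intraperitoneal salidroside, a plant glycoside, at 50 mg per kg for 6 days. In both MCAO groups the first injection came 1 h after reperfusion, and the ischemic brain was taken for RNA. All 3 groups share sex and strain. The age of the rats, the duration of the occlusion and the extent of the dissected tissue are not given in the sources used here. Nothing states whether RNA of several animals was pooled, so p-values measure only the spread between these samples.

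As background, GABA is made from glutamate by the decarboxylases Gad1 and Gad2, loaded into vesicles by Slc32a1 together with glycine, cleared by the plasma membrane transporters of the Slc6 family, and broken down by Abat. GABA-A receptors and glycine receptors are pentameric chloride channels held at synapses by gephyrin (Gphn), while GABA-B receptors are G-protein-coupled heterodimers of Gabbr1 and Gabbr2. Whether opening the chloride channels inhibits a neuron depends on the chloride gradient set by the cotransporters Slc12a5 (KCC2) and Slc12a2 (NKCC1). Glycine acts as the main fast inhibitory transmitter in brainstem and spinal cord, and GABA does so in the forebrain.

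Sham 2 and sham 3 differed by little more than repeat spots of one array do. Their mean was counted as 1 sample, so the fit had 8 samples (2 sham, 3 vehicle, 3 salidroside). Over 5513 bright single-spot probes the spread of their log2 difference (median absolute deviation, scaled to an SD) was 0.086, against 0.084 from the scatter of repeat spots. For the other 35 pairs of arrays this spread was 0.17 to 0.535. On 514 bright probes with repeat spots, the squared difference of 2 arrays was divided by its variance from those spots. The median of this ratio was 1.4 for sham 2 and sham 3 and 20 to 199 for the other pairs. The labels name sham 2 and sham 3 as separate samples. Sham 3 was also the dimmest array, with a 75th percentile of signal of 495.5 against a highest value of 2340. The 9 arrays lay on 4 slides, and no slide held both sham and MCAO arrays, so slide and operation cannot be told apart. Deviations of repeat spots from their probe's mean correlated at 0.307 to 0.589 between arrays of like operation and at -0.098 to 0.005 between sham and MCAO arrays, a further technical difference that cannot be told apart from the operation.

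Tissue content differed between single arrays, as measured by marker genes of other cell types and regions. Sham 1 had a summed level of 9 striatal neuron markers of 43.6, in multiples of the array's 75th percentile, against 7.73 to 13.6 on the other 8 arrays. The summed level of 7 cerebellum markers was 23.4 on vehicle 2, and 2.5 and 2.56 on vehicle 1 and 3, all above the sham arrays (1.40 to 1.56) and the salidroside arrays (0.962 to 1.79). The 5 measured choroid plexus markers summed to 19.9 on vehicle 1, 89.5 on vehicle 3 and 86.1 on salidroside 3, and to 0.404 to 1.06 on the others. Ttr was by far the largest term on these 3 arrays, and Folr1 was also highest there. The other markers did not all follow: Otx2 was highest on vehicle 3, salidroside 2 and vehicle 2, and Clic6 was lowest on salidroside 3. Pan-neuronal markers, 8 of 9 measured, summed to 99.7 to 122 in sham, 87.7 to 112 in vehicle and 109 to 123 in salidroside, so neuronal RNA was present on every array. In bulk tissue, fewer cells of a type and less RNA per cell cannot be told apart.

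The 3 members with the smallest p-values between vehicle and sham were Slc6a5, Gabra4 and Slc6a11, of which only Slc6a5 was called. The 250 bases upstream of each start site are printed here. Sequences are from RefSeq on GRCr8, where 27 of the 31 members had an entry, and run 5′ to 3′ in the direction of the gene. Capitals mark a match on either strand to the AP-1 letters TGAGTCA, the EGR core GTGGGCG or the CRE letters TGACGTCA. Slc6a5 lies at chr1:108781303-108781552, Gabra4 at chr14:36944497-36944746 and Slc6a11 at chr4:148853307-148853556, all on the plus strand.
Slc6a5: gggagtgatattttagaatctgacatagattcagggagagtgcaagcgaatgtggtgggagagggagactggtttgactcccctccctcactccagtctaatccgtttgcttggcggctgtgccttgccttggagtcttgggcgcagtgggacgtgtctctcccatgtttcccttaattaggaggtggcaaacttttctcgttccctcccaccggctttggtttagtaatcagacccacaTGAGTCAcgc
Gabra4: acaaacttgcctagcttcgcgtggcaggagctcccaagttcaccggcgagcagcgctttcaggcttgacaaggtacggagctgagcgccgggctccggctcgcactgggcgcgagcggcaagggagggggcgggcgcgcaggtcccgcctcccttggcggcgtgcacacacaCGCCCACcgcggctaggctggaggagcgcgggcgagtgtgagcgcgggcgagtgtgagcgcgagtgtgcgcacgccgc
Slc6a11: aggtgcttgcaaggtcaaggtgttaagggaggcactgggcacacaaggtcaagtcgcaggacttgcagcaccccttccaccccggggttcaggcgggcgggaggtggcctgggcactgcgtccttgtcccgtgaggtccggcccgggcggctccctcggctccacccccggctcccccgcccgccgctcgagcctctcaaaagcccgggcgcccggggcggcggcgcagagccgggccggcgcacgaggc

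The AP-1 letters stood at bases -10 to -4 before the Slc6a5 start and in no other member window, and 4.05% of 33469 rat windows held them. The EGR core, on the reverse strand at bases -78 to -72 of Gabra4, was also present in Gabra5 and Gabbr1 and in 6.27% of all windows. No member window held the CRE letters, which were in 1.59% of all windows. The GC box letters GGGCGG, not capitalised here, occurred in 18 of the 27 member windows and in 30.5% of all windows. Slc6a11 carried them 4 times and Gabra4 once, while the Slc6a5 window had none. These matches describe the letters only, and no binding was measured.

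Values are given as log2 of the processed signal minus the array's 75th percentile, in the order of replicates 1, 2 and 3. Of the 25 measured members, 1 was called between vehicle and sham, at a Benjamini-Hochberg adjusted p under 0.05 over all 22783 features in limma, where 0.593% of all features (135) were called. Between salidroside and vehicle limma called 0 members and 0% of all features. At an unadjusted p under 0.05 there were 4 members, against 5.01% of all features (1142). Between salidroside and sham 0 members were called, with 3 at an unadjusted p under 0.05, while 0.514% of all features (117) were called and 13% (2953) had an unadjusted p under 0.05. The member medians were -0.08, 0.07 and -0.06 in these 3 comparisons. Over all features the medians were 0.115, 0.056 and 0.142. The member median thus lay near that of all features in salidroside minus vehicle and below it in both comparisons with sham. The latter rested on sham 1. Without sham 1, which leaves 1 sham sample, vehicle minus sham had a median of 0.036 for the members and 0.033 for all features. Salidroside minus sham then had medians of 0.084 and 0.069. In each comparison with sham 14 of the 25 members had negative differences, and 9 had them without sham 1. With sham 1 included, 9079 of the 22783 features were negative in vehicle minus sham and 7707 in salidroside minus sham. Whether the members differ from the other features in this was not tested. Arrays of vehicle and sham did not overlap for 5 of the 25 members, 2 higher and 3 lower, against 28.7% of all features. Between salidroside and vehicle this was the case for 4 members, against 11.9%, and between salidroside and sham for 5 members, against 20.2%. Gabrr2 is among these 5 and among the 3 members with an unadjusted p under 0.05 between salidroside and sham. It passed the background filter only through the salidroside group, so its place in these counts is not independent of the filter.

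**Figure D1:**
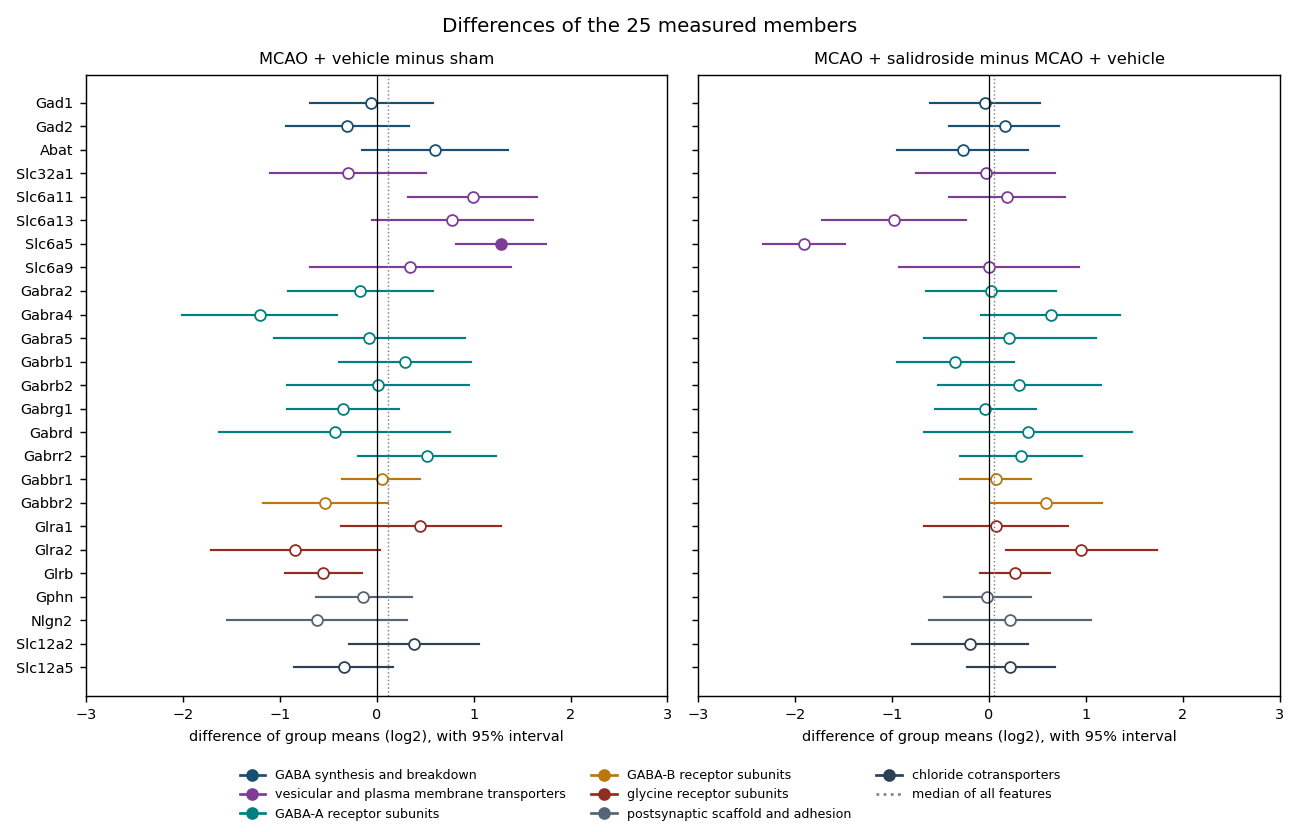
Difference of group means on the log2 scale with its 95% interval for the 25 measured members, coloured by role, for MCAO + vehicle minus sham (left) and MCAO + salidroside minus MCAO + vehicle (right). Filled points passed an adjusted p under 0.05 in limma and the dotted line is the median of all features; the only filled point is Slc6a5 at 1.28 on the left, and its interval of -2.33 to -1.49 on the right lies farthest from 0.

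Among the enzymes of GABA synthesis and breakdown no difference was called. Abat, the transaminase that degrades GABA, had the smallest p of the 3 in both comparisons. Its values were -4.16, -3.96 and -4.17 in sham, -4.08, -3.17 and -3.28 in vehicle, and -3.87, -3.39 and -4.10 in salidroside. Vehicle 1 stood at the sham level and the groups overlapped. Vehicle minus sham was 0.60 ± 0.324 (SE; adjusted p in limma = 0.371) and salidroside minus vehicle was -0.27 ± 0.290 (SE; adjusted p in limma = 0.986).

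Gad1, the decarboxylase that makes most basal GABA, differed by -0.06 between vehicle and sham, with a 95% interval of -0.69 to 0.58. Between salidroside and vehicle its difference was -0.04 (interval -0.61 to 0.53). Its second probe gave -0.10 and -0.14. The 9 Gad1 values of the brighter probe ran from 4.33 on vehicle 3 to 5.12 on vehicle 2, so both extremes fell in the vehicle group. Gad2, the synaptic decarboxylase, was highest on sham 1 at -3.11, where the striatal markers were also highest, and ran from -4.14 to -3.50 on the other arrays. Its difference was -0.31 in vehicle minus sham and 0.16 in salidroside minus vehicle, and the part of tissue content in it was not tested.

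The transporters held the single call of the set. Slc6a5 (GlyT2), the glycine transporter that refills glycinergic nerve endings and is best known from brainstem and spinal cord, rose in vehicle over sham and had its lowest values in salidroside. The brighter of its 2 probes, A_64_P060942, read -2.36, -2.49 and -2.37 in sham, -1.24, -0.95 and -1.14 in vehicle, and -3.31, -2.82 and -2.95 in salidroside. All 3 groups stood apart with no overlap between any of them, and the probe was well above background on every array, at 95.6 to 894 signal units. The group means were -2.39 ± 0.0556 (SD, n = 2), -1.11 ± 0.146 (SD, n = 3) and -3.03 ± 0.252 (SD, n = 3). The difference of vehicle to sham was 1.28 ± 0.201 (SE), a 2.43-fold higher signal with an interval of 0.82 to 1.75, and it passed with an adjusted p in limma of 0.0467. The call was lost on leaving out any one of sham 1, vehicle 1, vehicle 2, vehicle 3, salidroside 2 and salidroside 3, at adjusted p-values in limma of 0.0984 to 0.202, and the difference then lay between 1.205 and 1.349. It was also lost with the slide as a random block (adjusted p in limma = 0.108) and with all probes tested singly (0.0507).

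Salidroside minus vehicle for the same Slc6a5 probe was -1.91 ± 0.180 (SE), a signal 3.77-fold lower in salidroside. Its unadjusted p of 7.44e-06 gave an adjusted p in limma of 0.0941, short of the threshold. Within slide 1, with vehicle 1 and 3 and salidroside 2 and 3, the difference was -1.69, and within slide 3, with vehicle 2 and salidroside 1, it was -2.35. With all 9 arrays entered as separate samples it passed, at an adjusted p in limma of 0.0254. With sham 2 and sham 3 still counted as 1 sample it passed with quantile normalization (adjusted p in limma = 0.0488), with median scaling (0.038) and with the deposited value table (0.0245). Its side of the threshold thus turned on the processing as well as on the counting of sham 2 and sham 3. Salidroside minus sham was -0.63 ± 0.201 (SE; adjusted p in limma = 0.225).

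The other Slc6a5 probe, A_64_P060947, is assigned to the same transcript and did not show this pattern. It read -5.64, -5.07 and -5.64 in sham, -4.75, -5.42 and -5.44 in vehicle, and -5.21, -4.69 and -5.59 in salidroside, and all groups overlapped. It was dim, at 9.94 to 58.3 signal units, and well above background on 2 of the 3 sham arrays and on all MCAO arrays. Vehicle minus sham was 0.30 (interval -0.46 to 1.05) and salidroside minus vehicle was 0.04 (interval -0.63 to 0.71). Both intervals leave out the value of the brighter probe.

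With the mean of both Slc6a5 probes, vehicle minus sham was 0.79 (adjusted p in limma = 0.137) and salidroside minus vehicle was -0.94 (adjusted p in limma = 0.527), and Slc6a5 was not called in either.

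Marker genes of cerebellum, brainstem and spinal cord were set beside Slc6a5. Of the cerebellum markers, 7 of 7 were positive in vehicle minus sham (median 1.66) and 6 of 7 negative in salidroside minus vehicle (median -1.87), and none was called in limma, with 2 and 3 of the 7 at an unadjusted p under 0.05. Of these, Neurod1 read -0.44, -0.67 and -0.72 in sham, 0.47, 2.98 and 0.40 in vehicle, and -1, -1.23 and -1.24 in salidroside. Its groups did not overlap and stood in the same order as those of Slc6a5. Neurod1 was the only 1 of the 7 with every salidroside array below every sham array, so the other cerebellum markers did not show this order. Of the brainstem and spinal cord markers, Hoxb4, Hoxc4, Slc6a2 and Lbx1 were measured, and Hoxb3, Hoxb5 and Hoxa5 did not pass the filter on background. The summed level of the 4 measured markers was 0.205 to 0.319 in sham, 0.185 to 0.347 in vehicle and 0.169 to 0.387 in salidroside, with overlap, and Slc6a2 was the largest term of it on every array. Lbx1 differed by 0.90 in vehicle minus sham and by -0.32 in salidroside minus vehicle, and was not called. The part of tissue content in the Slc6a5 values was not tested.

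Slc6a11 (GAT3), the GABA transporter of astrocytes, read -4.09, -3.35 and -3.33 in sham, -2.63, -2.96 and -2.60 in vehicle, and -2.90, -2.35 and -2.37 in salidroside. Every MCAO array was above every sham array, and sham 1 was lowest. The differences to sham were 0.99 ± 0.286 (SE; adjusted p in limma = 0.154) for vehicle and 1.17 ± 0.286 (SE; adjusted p in limma = 0.142) for salidroside. Both comparisons use the same sham samples, and neither passed. Without sham 1 they were 0.61 (adjusted p in limma = 0.464) and 0.80 (adjusted p in limma = 0.646). Salidroside minus vehicle was 0.19, with an interval of -0.41 to 0.78. Astrocyte markers, 6 of 7 measured, summed to 72.2 to 75.6 in sham, 79.6 to 99.2 in vehicle and 68.1 to 87.4 in salidroside, and their part in the Slc6a11 values was not tested.

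Slc6a13 (GAT2), a GABA transporter known from the leptomeninges and blood vessels rather than from neurons, read -2.80, -3.47 and -3.46 in sham, -3.02, -2.22 and -1.82 in vehicle, and -3.31, -3.28 and -3.41 in salidroside. All salidroside arrays were below all vehicle arrays. Salidroside minus vehicle was -0.98 ± 0.320 (SE; adjusted p in limma = 0.885), at -0.92 within slide 1 and -1.09 within slide 3, and vehicle minus sham was 0.78 ± 0.357 (SE; adjusted p in limma = 0.296). All 7 markers of leptomeninges and fibroblasts had negative differences in salidroside minus vehicle, from -1.29 to -0.05. Their summed level was 43.1 on vehicle 1, where Slc6a13 was lowest in that group, 74.9 and 73.6 on vehicle 2 and 3, and 48.4 to 63.2 in salidroside. Ptgds and Igf2 were the largest terms of this sum. Within the vehicle group Ptgds, Igf2, Col1a2 and Pdgfrb were lowest on vehicle 1, while Dcn, Col1a1 and Lum were lowest on vehicle 2. The part of these markers in the Slc6a13 difference was not tested.

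Slc32a1, the vesicular transporter of GABA and glycine, was highest on sham 1 at 3.73 and ran from 2.50 to 3.45 on the other arrays. Its differences were -0.30 (interval -1.10 to 0.51) for vehicle minus sham and -0.03 (interval -0.75 to 0.68) for salidroside minus vehicle. Slc6a9 (GlyT1), the mainly glial glycine transporter, differed by 0.34 and by 0.00 in these comparisons. Its values spread from -1.52 to -0.53 in vehicle and from -1.61 to -0.23 in salidroside. The second Slc6a9 probe gave 1.00 and -0.55, and was highest on vehicle 3 at -2.03. Whether the 2 glycine transporters differ from each other in these changes was not tested.

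**Figure D2:**
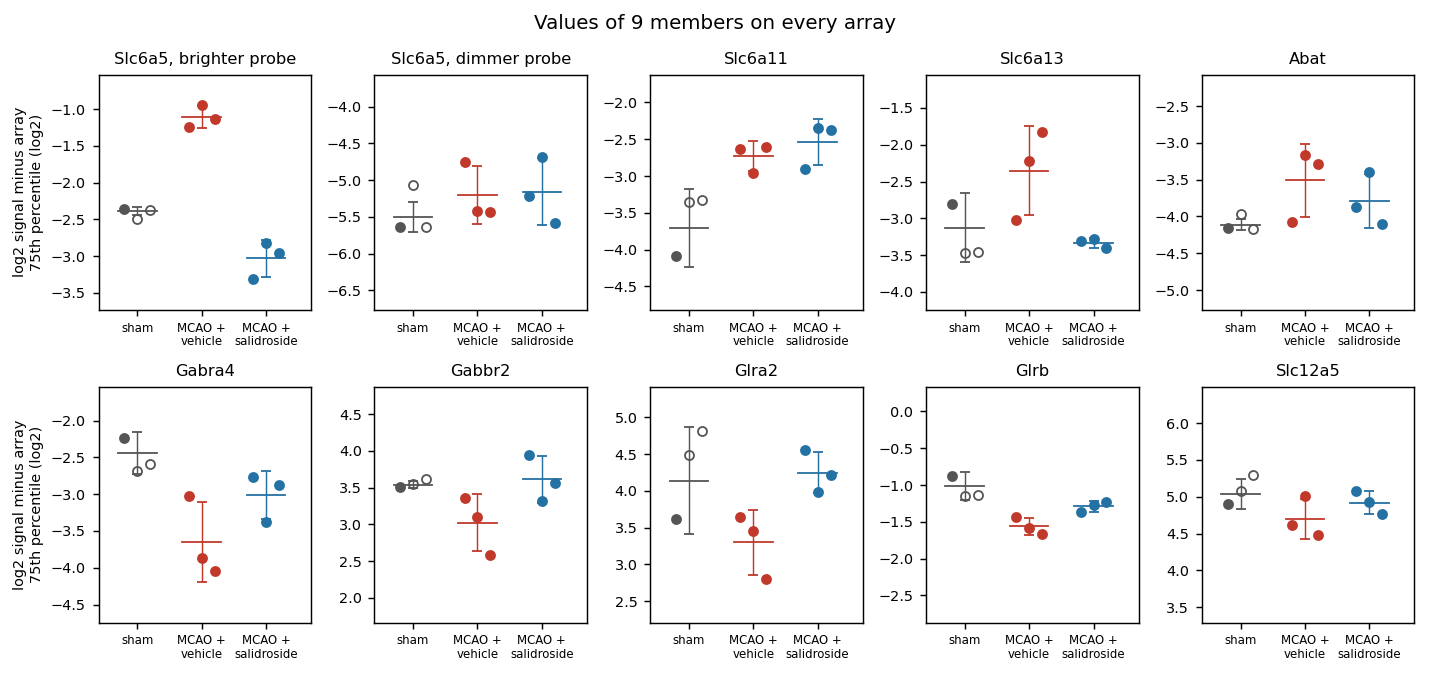
Value of 9 members on every array (log2 signal minus the array's 75th percentile), with both Slc6a5 probes shown apart; bars are group means with the SD over 2 sham, 3 vehicle and 3 salidroside samples, and open points are sham 2 and sham 3, whose mean counts as 1 sample. The brighter Slc6a5 probe separates all 3 groups, with vehicle at -1.24 to -0.95 and salidroside at -3.31 to -2.82, while the dimmer probe overlaps between groups.

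Of the 13 GABA-A receptor subunits, 8 were measured and none was called by limma in any of the 3 comparisons. An unadjusted p under 0.05 was found for 1 of the 8 in vehicle minus sham, 0 in salidroside minus vehicle and 1 in salidroside minus sham. The last was Gabrr2, which passed the filter only through the salidroside group, so that count is not independent of the filter. Gabra4, the alpha4 subunit that forms extrasynaptic receptors with the delta subunit in thalamus, striatum and dentate gyrus, had the smallest p. It read -2.24, -2.68 and -2.59 in sham, -3.02, -3.87 and -4.05 in vehicle, and -2.77, -3.38 and -2.87 in salidroside. Every MCAO array was below every sham array, and salidroside overlapped with vehicle. Gabra4 was highest on sham 1, where the striatal markers were also highest, and without sham 1 vehicle minus sham was -1.01. The 4 measured thalamus and midbrain markers summed to 4.05 and 3.99 on vehicle 2 and 3 and to 3.63 on salidroside 2. These arrays were the lowest in Gabra4, and the sum was 0.921 to 1.34 on the others. Slc17a6 was the largest term of the sum on these 3 arrays, at 1.61 to 1.62 against -1.91 to -0.43 on the others. Of the other markers, Lef1 was also highest on these arrays. Prkcd was lowest on salidroside 2 at -1.21, and Gbx2 on vehicle 2, at -5.71, was below all sham arrays. The part of tissue content in the Gabra4 values was not tested. Vehicle minus sham was -1.21 ± 0.345 (SE; adjusted p in limma = 0.149), salidroside minus vehicle was 0.64 ± 0.308 (SE; adjusted p in limma = 0.986) and salidroside minus sham was -0.57 ± 0.345 (SE; adjusted p in limma = 0.577).

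Gabrd, the delta subunit that partners Gabra4, did not repeat that order. It was highest on vehicle 2 at 0.76 and lowest on vehicle 3 at -1.14, so the vehicle group held both extremes, and the sham arrays lay between -0.05 and 0.28. Its differences were -0.43 (interval -1.63 to 0.76) and 0.40 (interval -0.67 to 1.47) for vehicle minus sham and salidroside minus vehicle. Delta subunit RNA is abundant in cerebellar granule cells, and vehicle 2 was the array with the high cerebellum markers; their part in the Gabrd value was not tested.

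Gabra6, the alpha6 subunit known almost only from cerebellar granule cells, was high on 1 array. Its value was 0.87 on vehicle 2 and between -8.30 and -6.99 on the other 8 arrays. It failed the filter because no group had it above background on all arrays. On the same array the cerebellum markers Pcp2, of Purkinje cells, read 2.97 against -3.88 to -2.20 elsewhere, Cbln1, of granule cells, read 2.84 against -2.84 to -0.71, and Neurod1 read 2.98 against -1.24 to 0.47. Cbln3, also a granule cell gene, read -2.62 on vehicle 2 and -3.21 to -1.83 elsewhere, so it was not high there. Without vehicle 2, the Slc6a5 difference was 1.205 for vehicle minus sham and -1.836 for salidroside minus vehicle.

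**Figure D3:**
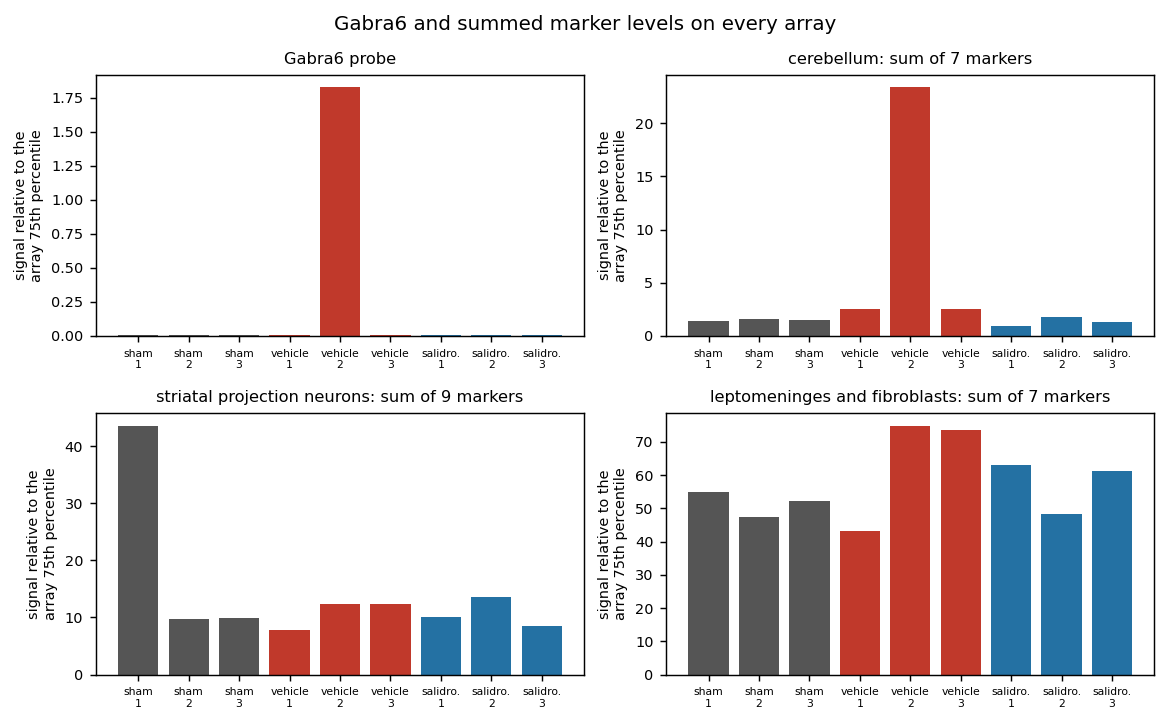
Signal of the Gabra6 probe and summed signals of 7 cerebellum, 9 striatal neuron and 7 leptomeninges and fibroblast markers on each of the 9 arrays, on a linear scale as multiples of the array's 75th percentile (salidro. stands for MCAO + salidroside, vehicle for MCAO + vehicle). The Gabra6 bar stands on vehicle 2 alone together with the cerebellum sum of 23.4, and the striatal sum peaks on sham 1 at 43.6.

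The other measured GABA-A subunits varied mostly between single arrays. Gabrr2, a rho subunit known chiefly from retina, was dim, at 3.22 to 31.6 signal units. It passed the filter only through the salidroside group, and was well above background on 2 of the 3 arrays in sham and in vehicle. Its values were -6.26 to -5.80 on the salidroside arrays and -7.27 to -6.55 on the sham arrays. The difference of 0.85 ± 0.305 (SE, adjusted p in limma = 0.278) is thus not independent of the filter. Gabra5, the alpha5 subunit of hippocampal extrasynaptic receptors, was at -1.28 on vehicle 1 and at -2.72 and -2.73 on vehicle 2 and 3, so its vehicle arrays differed by more than any 2 group means. Gabrb1 was likewise highest on vehicle 1 at 2.42 and ran from 1.27 to 1.69 elsewhere. Gabrg1 was highest on sham 1 at -0.51 and between -1.37 and -0.98 on the others. Gabra2 and Gabrb2 had differences of -0.17 and 0.01 in vehicle minus sham and of 0.02 and 0.31 in salidroside minus vehicle.

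The other 4 unmeasured GABA-A subunits stayed dim. Gabra3 ran from -7.60 to -6.77 over all 9 arrays, Gabrg3 from -9.28 to -6.58, and Gabre from -8.82 to -6.86. Gabrr1 ran from -9.61 to -6.75 on 8 arrays and was -5.68 on vehicle 3. Where such a probe is not well above background, its value is only an upper bound.

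Neither GABA-B receptor subunit was called. Gabbr2, the subunit that couples to G proteins, read 3.51, 3.55 and 3.61 in sham, 3.36, 3.10 and 2.59 in vehicle, and 3.94, 3.32 and 3.56 in salidroside. All vehicle arrays were below all sham arrays, and vehicle 1 overlapped with salidroside 2. The Gabbr2 difference of vehicle to sham was -0.53 ± 0.276 (SE; adjusted p in limma = 0.357) and salidroside minus vehicle was 0.59 ± 0.247 (SE; adjusted p in limma = 0.986). Gabbr1, which binds GABA, kept within -1.28 to -0.94 on its brighter probe on all 9 arrays. Its differences were 0.05 (interval -0.36 to 0.45) and 0.07 (interval -0.30 to 0.43), and its second probe gave -0.34 and 0.46.

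Of the 4 glycine receptor subunits 3 were measured, and none was called. Glrb, the beta subunit that anchors the receptor to gephyrin, had the smallest p between vehicle and sham. It read -0.88, -1.15 and -1.14 in sham, -1.43, -1.59 and -1.66 in vehicle, and -1.37, -1.27 and -1.23 in salidroside. The 3 groups followed one another without overlap, with sham highest, salidroside between and vehicle lowest. Vehicle minus sham was -0.55 ± 0.172 (SE; adjusted p in limma = 0.169), salidroside minus vehicle 0.27 ± 0.153 (SE; adjusted p in limma = 0.986) and salidroside minus sham -0.28 ± 0.172 (SE; adjusted p in limma = 0.583).

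Glra2, the alpha2 subunit known as the main alpha subunit of developing forebrain, had the smallest p of its role between salidroside and vehicle. It read 3.62, 4.49 and 4.82 in sham, 3.65, 3.45 and 2.80 in vehicle, and 4.55, 3.99 and 4.21 in salidroside. All salidroside arrays were above all vehicle arrays, while sham 1 fell among the vehicle arrays. Salidroside minus vehicle was 0.95 ± 0.335 (SE; adjusted p in limma = 0.923), at 0.88 within slide 1 and 1.1 within slide 3, and vehicle minus sham was -0.84 ± 0.374 (SE; adjusted p in limma = 0.282). Without sham 1, vehicle minus sham was -1.36. Glra1, the alpha1 subunit of adult brainstem and spinal cord, was lowest on sham 1 at -2.89 and ran from -2.42 to -1.54 elsewhere, with differences of 0.45 and 0.07. Glra3 stayed between -9.61 and -7.49 on all arrays and was not measured.

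Markers of cortical projection neurons had group differences of the same signs as Gabra4, Gabbr2, Glra2 and Glrb. All 6 measured of 7 had negative differences in vehicle minus sham, with a median of -0.72, and positive ones in salidroside minus vehicle, with a median of 0.87. Their summed level was 2.55, 3.88 and 3.65 in sham, 3.15, 1.70 and 1.11 in vehicle, and 4.45, 2.47 and 3.81 in salidroside, with overlap between groups. Of interneuron markers, 12 of 15 were measured, with medians of -0.49 and 0.45 in these comparisons and summed levels of 101 to 134, 67.5 to 108 and 88.1 to 135. Neither list had a called gene in either comparison, and their part in the receptor values was not tested.

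The scaffold and adhesion genes had no called difference. Nlgn2, the adhesion protein of inhibitory synapses, had the smaller p in both comparisons. It read 1.99, 2.69 and 3.02 in sham, 1.31, 1.91 and 2.18 in vehicle, and 1.85, 2.58 and 1.62 in salidroside, with overlap between all groups. Its differences were -0.62 ± 0.402 (SE; adjusted p in limma = 0.458) and 0.22 ± 0.359 (SE; adjusted p in limma = 0.986). Its second probe gave 0.02 and 0.27. Gphn, the scaffold that clusters GABA-A and glycine receptors, differed by -0.14 and -0.02 and was highest on sham 1 at -0.24. Its second probe gave -0.02 and -0.04.

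No difference of the chloride cotransporters was called. Slc12a5 (KCC2), the chloride extruder of mature neurons, read 4.90, 5.08 and 5.30 in sham, 4.62, 5.01 and 4.48 in vehicle, and 5.08, 4.93 and 4.77 in salidroside. The groups overlapped. The difference of vehicle to sham was -0.34 ± 0.218 (SE; adjusted p in limma = 0.455) and salidroside minus vehicle was 0.22 ± 0.195 (SE; adjusted p in limma = 0.986). Slc12a2 (NKCC1), which loads chloride into immature neurons and glia, had differences of 0.38 (interval -0.29 to 1.05) and -0.20 (interval -0.80 to 0.40). The second probes of both genes gave differences of opposite sign between vehicle and sham, at 0.22 for Slc12a5 and -0.25 for Slc12a2.

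Of the 8 members with 2 measured probes, both probes had the same sign for 4 in vehicle minus sham, 7 in salidroside minus vehicle and 4 in salidroside minus sham. The value of the brighter probe lay outside the 95% interval of the other for 2, 1 and 2 of the 8 genes. In vehicle minus sham these were Slc6a5 and Nlgn2, and in salidroside minus vehicle Slc6a5.

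The wider pathway was read from 40 other genes of GABA and glycine handling, of which 33 were measured. No gene of that list was called by limma in any comparison, and 8, 2 and 3 of the 33 had an unadjusted p under 0.05 in vehicle minus sham, salidroside minus vehicle and salidroside minus sham. In vehicle minus sham 18.6% of all features (4236) had such a p, and 4 of the 25 members did. The list medians were -0.14, 0.14 and -0.01, with 13 of 33 positive in vehicle minus sham and 22 of 33 in salidroside minus vehicle. Of all 22783 features, 13704 and 13358 were positive in these 2 comparisons.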

How the data were processed

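The 9 arrays are one-colour Agilent rat arrays designed on rn4. Scanning software was Agilent Feature Extraction 11.0.1.1 under the protocol GE1_1100_Jul11, per the file headers. The deposited intensity is on a linear scale, background-subtracted and not normalized between arrays. The authors also deposited log2 values for 19477 probes in 1 table, with column medians of 8.691 to 8.706; its scale follows the scanner values of each array (r of at least 0.99967), and how it was normalized is not given in the sources used here.

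From log2 of each processed signal the array's 75th percentile over the 42877 non-control spots was subtracted. Outlier spots were dropped and spots of a probe averaged. A probe was tested if well above background, by most of its spots, on every array of at least 1 group (25576 of 30367 probes). Transcript accessions gave a symbol to 18005 probes through a RefSeq table on GRCr8 used for names only, and the brightest tested probe stood for a gene (22783 features). Sham 2 and sham 3 were averaged into 1 sample, which departs from the design first set, where the 9 arrays were separate; that fit was kept as an alternative. limma 3.58.1 in R 4.3.3 fitted 3 groups with 5 residual and 2.64 prior degrees of freedom, and calls were made where the Benjamini-Hochberg adjusted p was under 0.05. Intervals are 95% intervals from the fit of single probes. The fit was tested on simulated data.

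Values on every array are given for members called in any comparison and for the member of each role with the smallest p. Slc6a11, Slc6a13, Gabra6, Gabrd and the marker Neurod1 were singled out after their values were seen. The members and gene lists were chosen with earlier results of these data known. The labels' replicate numbers did not pair the samples: deviations of same-numbered arrays correlated at -0.188 to 0.255. The number of arrays limits the precision.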

Additional observations from a re-analysis of the deposited data

How the results depend on the processing

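Between vehicle and sham, 1 member (Slc6a5) was called. The count was 0 with median scaling, with normexp correction of the median pixel signal, with no filter on dim probes, with every probe fitted on its own, with the mean over a gene's probes, with only the 2 groups compared, with the slide as a block, and without sham 1 and vehicle 2 together. With the replicate block it was 0, and in that fit Slc6a5 differed by 1.271 (adjusted p in limma = 0.157). Leaving out single arrays, or sham 2 and 3 together, gave 0 to 1. Between salidroside and vehicle the count of 0 became 1 (Slc6a5) with all 9 arrays as separate samples, with quantile normalization, with median scaling and with the deposited value table; it stayed at 0 without any single array. Over 23 alternatives Slc6a5 kept its sign, at 0.79 to 1.349 (adjusted p in limma 0.00846 to 0.992) for vehicle minus sham and -2.017 to -0.936 (0.0245 to 0.565) for salidroside minus vehicle. Salidroside minus sham had 0 members called in all 23. The causes were not tested.

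Calls over all features between vehicle and sham went from 135 to 641 with all 9 arrays separate, 203 with quantile normalization, 221 with median scaling, 209 with the deposited table, 61 with no filter, 50 with the slide block, and 0 with normexp, with only 2 groups or with the replicate block; without single arrays they ran from 0 to 238. Those between salidroside and sham went from 117 to 284, 218, 252, 190, 54, 51 and 0 in the same order, and from 0 to 895 without single arrays; between salidroside and vehicle 0 to 8 were called. Median scaling moved the median of all features between vehicle and sham from 0.115 to -0.061, and that of the members from -0.075 to -0.251.

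Signs turned, within the 10 members followed here, only for differences that were not called. For salidroside minus vehicle, Abat became 0.56 with normexp, and Nlgn2 ran from -0.064 to 0.417 without single arrays. For salidroside minus sham, with normexp Slc6a5 became 0.048 and Slc6a13 0.395; with median scaling Gabbr2 became -0.076 and Glra2 -0.03; with 9 separate arrays Glra2 became -0.063; with the mean over probes Slc12a5 became 0.184; without sham 1 and vehicle 2 together Slc6a13 became 0.132 and Glra2 -0.407. Without single arrays (or sham 2 and 3) the same comparison ran from -0.531 to 0.132 for Slc6a13, -0.105 to 0.208 for Gabbr2, -0.407 to 0.624 for Glra2, -0.837 to 0.032 for Nlgn2 and -0.263 to 0.027 for Slc12a5.

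Normexp on the mean pixel signal was not run, since the files used hold the median pixel signal, which was chosen after seeing the data, as were the 9 separate arrays and the joint omissions. A fit that leaves 1 sham sample assumes that it varies like the other groups. Dim probes near background limit the 6 members that were not measured, and also Gabrr2.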
